A study of Mus musculus with 8 samples.

Results

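Cytotoxic lymphocytes, which are natural killer (NK) cells and CD8 T cells, kill target cells by releasing granules onto them. Perforin, encoded by Prf1, makes pores in the target membrane, and granzymes, encoded by Gzma, Gzmb and Gzmk, are the granule proteases that enter through them. NK cells decide whether to kill through activating and inhibitory surface receptors, among them the products of Klrk1 (NKG2D), Ncr1 (NKp46) and Klrd1 (CD94), and in the spleen they are a small population beside the B cells.

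The 10 genes described here, Nkg7, Gzma, Gzmb, Gzmk, Prf1, Ccl5, Klrd1, Klrk1, Ncr1 and Eomes, were chosen by symbol as cytotoxic and NK cell genes, after Nkg7 had been noticed as low in the Eµ-TCL1 column of the same count table. All 10 were found among its 24902 symbols. The levels in the Eµ-TCL1 library are therefore given as a description, with no test. The list was also chosen with earlier results of these data known.

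Splenic B cells of 8 mice were measured by bulk RNA-seq. The 4 Eµ-PRMT5 and 3 Eµ-PRMT5/TCL1 animals and the single Eµ-TCL1 animal were taken when each met the early removal criteria (ERC), set beforehand for euthanasia. Eµ-PRMT5 mice carry human PRMT5, an arginine methyltransferase, under an immunoglobulin heavy chain promoter and the Eµ enhancer, which act in B cells, Eµ-TCL1 mice carry human TCL1 under Eµ control, and Eµ-PRMT5/TCL1 mice carry both transgenes. The labels give the strain as C57BL/6N for all 8 and give no treatment and no age. The label of Eµ-PRMT5 mouse 3 bears a mouse number under which the paper describes anaplastic large lymphocytes with histiocyte infiltrates. That of mouse 4 bears a number under which it describes small lymphocytes in sheets, as in chronic lymphocytic leukemia. The part of this difference in the levels below was not tested. B cells were obtained by negative selection, in which cells of other types are bound by antibody and removed, so that each library holds whatever escaped that step. Library totals were 5484833, 6471716, 3987989 and 10252426 counts for Eµ-PRMT5 (mice 1 to 4), 6232700, 7290268 and 6686631 counts for Eµ-PRMT5/TCL1 (mice 1 to 3) and 3356297 counts for Eµ-TCL1, the lowest of the 8. Levels are given as counts per 1000000 counts (CPM) after TMM scaling, which corrects for differences in composition between libraries.

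Of the 80 values of the 10 genes, 8 were NA in the table, which was not read as 0. Nkg7, Gzmk, Prf1, Ccl5, Klrk1 and Ncr1 had a value in all 8 libraries and passed the filter on low counts, and these 6 were tested. Gzma, Gzmb, Klrd1 and Eomes lacked a value in at least 1 library and were not tested. In bulk RNA, fewer cytotoxic cells and less RNA of these genes per cell cannot be told apart.

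The label of the samples was checked first. Summed over 10 B cell markers, of which Cd79a was the most abundant, the level was 7684, 4689, 7366 and 3004 CPM in Eµ-PRMT5 mice 1 to 4, 3921, 5961 and 9259 CPM in Eµ-PRMT5/TCL1 mice 1 to 3 and 5608 CPM in the Eµ-TCL1 library. All 10 had counts in every library. The neutrophil markers summed to more than the B cell markers in Eµ-PRMT5 mouse 4, at 5308 CPM, and Eµ-PRMT5/TCL1 mouse 1, at 9186 CPM. In the other libraries they summed to less. Sums over different genes do not give shares of cells. Some libraries stood apart in markers of other cells. The CD8 T markers, 5 of 6 of which were in the table, summed to 65.4, 58.1, 355 and 107 CPM in Eµ-PRMT5 mice 1 to 4. The sums were 91.2, 48.8 and 55.8 CPM in Eµ-PRMT5/TCL1 mice 1 to 3 and 83.5 CPM in the Eµ-TCL1 library. Cd3g was the most abundant by CPM over all libraries together, but in Eµ-PRMT5 mouse 3 it was at 71.1 CPM, below Cd8b1. In Eµ-PRMT5 mouse 4 Cd3g was at 95.1 CPM. Cd3e, Cd3d, Cd8a and Cd8b1 were at 6.57, 2.65, 0.922 and 1.84 CPM in that mouse, each the lowest of the genotype. By the summed markers Eµ-PRMT5 mouse 3 was the highest. Cd8a and Cd8b1, which encode the CD8 chains, were at 58.4 and 125 CPM there, against at most 11 and 12.5 CPM elsewhere. Cd8a had no value in Eµ-PRMT5/TCL1 mouse 3. As highest of all 8 libraries, mouse 3 held 5 of 9 tested T markers and 3 of 4 tested CD8 T markers, against 12.7% of all genes. Of the 16 T and CD8 T marker genes in the table, 13 had their highest value among the Eµ-PRMT5 mice in mouse 3. The share of all genes for this second count was not taken. Among these 13, Themis and Trat1 had no value in mouse 1 and Bcl11b had none in mouse 4, so they were compared with fewer mice. Trat1 rested on 3 counts in mouse 3, and Cd5 was at 56.3 CPM there against 56 CPM in mouse 1. For NK cells the marker Klrb1c, the gene of the NK1.1 antigen, was read beside the 10 genes. It had 7.28, 11.6 and 5.19 CPM in Eµ-PRMT5 mice 2, 3 and 4 and no value in mouse 1, 1.64, 4.43 and 4.15 CPM in Eµ-PRMT5/TCL1 mice 1 to 3 and 7.30 CPM in the Eµ-TCL1 library. Other NK receptors were not alike, as 1 of the 8 tested was highest in Eµ-PRMT5 mouse 3 and Klrb1b was at 10.4 CPM in mouse 1 and 0 in mouse 3. Among receptors lacking a value in some library, Klrb1a, Klrc2, Klra3, Cd226, Cd96 and Itga2 also had their highest value in Eµ-PRMT5 mouse 3. Klrc1, Klrc3, Klre1, Klri1, Klri2, Klra1, Klra4, Klra7, Klra8, Klra9, Cd160 and Havcr2 had it in another library.

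**Figure D1:**
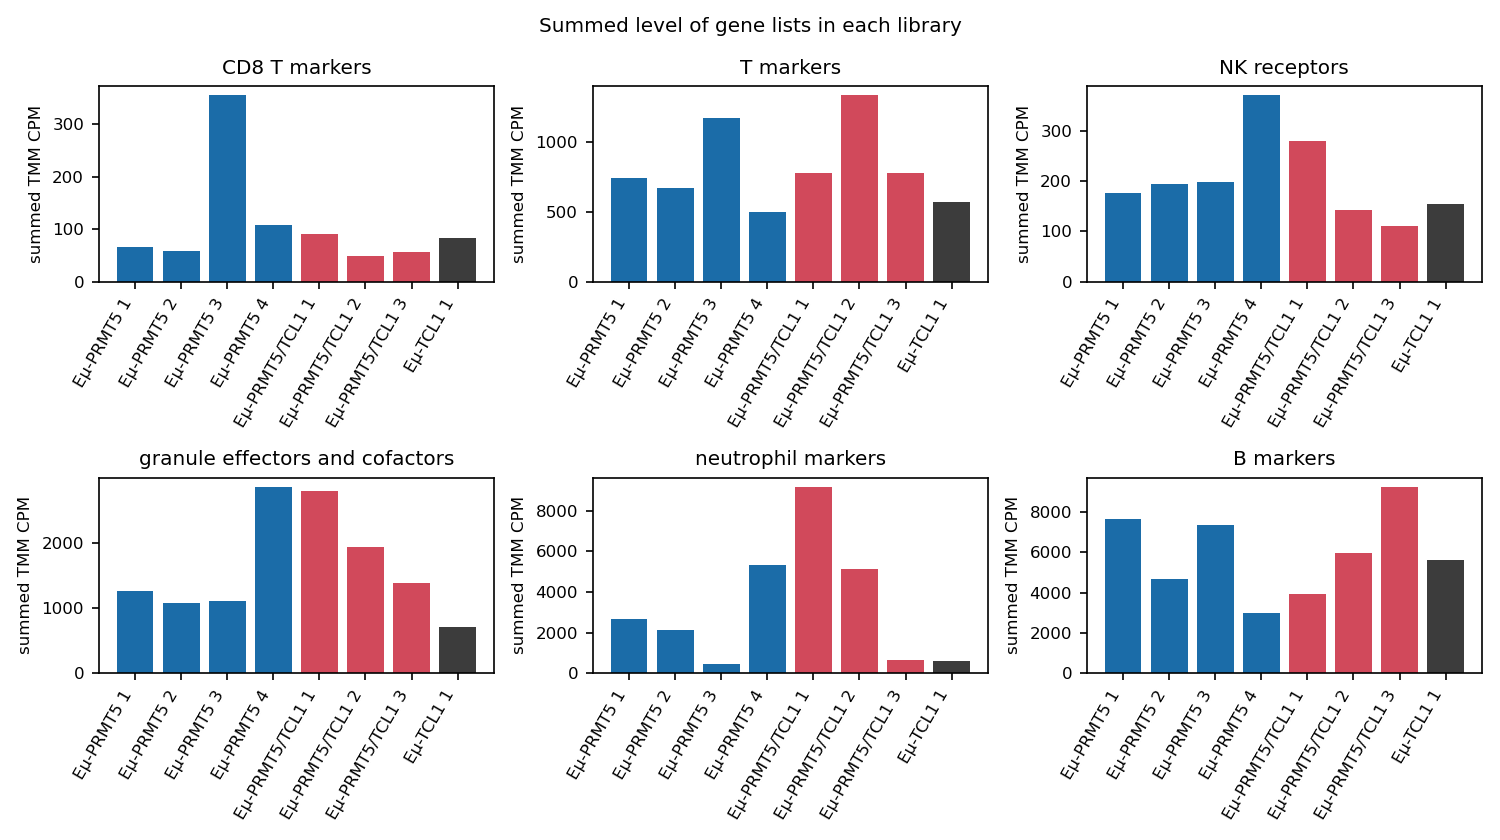
Summed TMM CPM of 6 gene lists in each of the 8 libraries, 1 bar per mouse, coloured by genotype. The CD8 T markers reach 355 CPM in Eµ-PRMT5 mouse 3 and at most 107 CPM in any other library.

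Nkg7 encodes a membrane protein of cytotoxic granules that is needed for their release. Its level was 17.7, 10.9, 279 and 32.5 CPM in Eµ-PRMT5 mice 1 to 4, 55.7, 39.0 and 7.84 CPM in Eµ-PRMT5/TCL1 mice 1 to 3 and 2.43 CPM in the Eµ-TCL1 library. Eµ-PRMT5 mouse 3 stood far above all others, the Eµ-TCL1 mouse was the lowest, and the ranges of the 2 replicated genotypes overlapped. The Eµ-TCL1 value rests on 9 counts, for which the exact 95% binomial interval is 1.11 to 4.62 CPM. The interval covers counting error at most, and no molecular identifiers were described for the reads.

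The mean of Nkg7 was 85.0 ± 130 CPM for Eµ-PRMT5 (SD, n = 4) and 34.2 ± 24.3 CPM for Eµ-PRMT5/TCL1 (SD, n = 3). The log2 fold change was -1.31 ± 1.00 (SE), with a 95% interval from -3.49 to 0.87 and an adjusted p = 1.00 by edgeR's quasi-likelihood test over all 13173 genes tested. Without Eµ-PRMT5 mouse 3 the mean of that genotype was 20.4 ± 11 CPM (SD, n = 3) and the log2 fold change was 0.74 ± 0.68 (SE, adjusted p = 0.81, edgeR), and it was -0.84 ± 1.07 (SE) without Eµ-PRMT5/TCL1 mouse 3. The part of the CD8 T markers in the level of Nkg7 in mouse 3 was not tested.

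**Figure D2:**
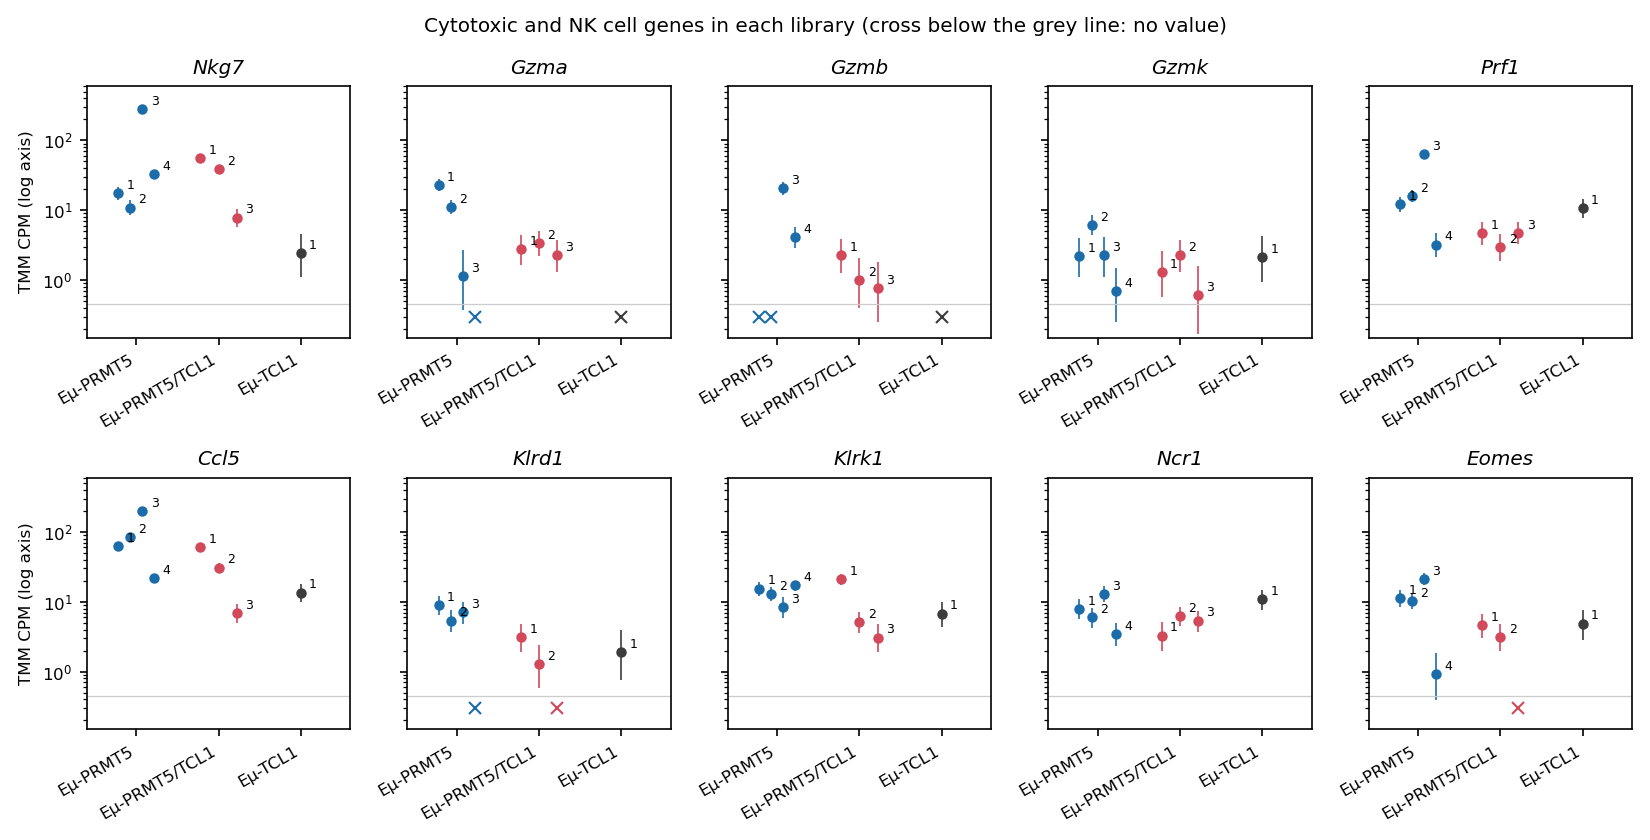
TMM CPM (log axis) of the 10 genes in each library, with the replicate number beside each point and exact 95% binomial intervals, and crosses for libraries with no value. Nkg7 spans 2.43 CPM in the Eµ-TCL1 library to 279 CPM in Eµ-PRMT5 mouse 3.

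Prf1, the pore-forming protein, measured 12.2, 16.0, 64.1 and 3.23 CPM in Eµ-PRMT5 mice 1 to 4, 4.75, 3.00 and 4.76 CPM in Eµ-PRMT5/TCL1 mice 1 to 3 and 10.8 CPM in the Eµ-TCL1 library. Of the Eµ-PRMT5 mice, 3 were above every Eµ-PRMT5/TCL1 mouse, and mouse 4 lay within their range. The log2 fold change between these genotypes was -2.50 ± 0.85 (SE, 95% interval from -4.36 to -0.65), which was at an unadjusted p under 0.05 but did not pass the adjustment over all genes (adjusted p = 1.00, edgeR). It was -1.32 ± 0.61 (SE) without Eµ-PRMT5 mouse 3, and then not at an unadjusted p under 0.05.

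Of the 3 granzymes among the 10 genes, Gzmk was the one with a value in every library. Its level was 2.23, 6.17, 2.28 and 0.692 CPM in Eµ-PRMT5 mice 1 to 4, 1.31, 2.29 and 0.615 CPM in Eµ-PRMT5/TCL1 mice 1 to 3 and 2.16 CPM in the Eµ-TCL1 library. All were low and the genotypes overlapped, with counts from 4 to 39 reads (log2 fold change -1.0 ± 0.83, SE, adjusted p = 1.00, edgeR). The fold change was -0.26 without Eµ-PRMT5 mouse 2, -1.54 without Eµ-PRMT5/TCL1 mouse 2 and -0.65 without Eµ-PRMT5/TCL1 mouse 3.

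Gzma, a trypsin-like granzyme, had 23.1, 11.2 and 1.14 CPM in Eµ-PRMT5 mice 1 to 3, no value in mouse 4, 2.79, 3.43 and 2.31 CPM in Eµ-PRMT5/TCL1 mice and no value in the Eµ-TCL1 mouse. Gzmb, which cuts after aspartate and triggers apoptosis, had no value in Eµ-PRMT5 mice 1 and 2, 20.5 and 4.15 CPM in mice 3 and 4, 2.30, 1.00 and 0.768 CPM in Eµ-PRMT5/TCL1 mice and no value in the Eµ-TCL1 mouse. Gzma was highest in Eµ-PRMT5 mice 1 and 2, where Gzmb has no value, and Gzmb was highest in mouse 3. Gzma was at 1.14 CPM, or 5 counts, in the mouse with the highest Nkg7, Prf1 and Gzmb.

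Ccl5 encodes a chemokine made by activated T cells and NK cells. It measured 61.9, 84.4, 200 and 21.7 CPM in Eµ-PRMT5 mice 1 to 4, 60.2, 30.9 and 6.92 CPM in Eµ-PRMT5/TCL1 mice 1 to 3 and 13.5 CPM in the Eµ-TCL1 library. Eµ-PRMT5 mouse 3 was again the highest, and the 2 genotypes overlapped. The log2 fold change was -1.49 ± 0.75 (SE, adjusted p = 1.00, edgeR), -0.78 ± 0.72 (SE) without Eµ-PRMT5 mouse 3 and -2.28 ± 0.86 (SE) without Eµ-PRMT5/TCL1 mouse 1, where it was at an unadjusted p under 0.05.

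Klrk1, the activating receptor NKG2D, measured 15.4, 13.0, 8.43 and 17.1 CPM in Eµ-PRMT5 mice 1 to 4, 21, 5.15 and 3.07 CPM in Eµ-PRMT5/TCL1 mice 1 to 3 and 6.76 CPM in the Eµ-TCL1 library. Eµ-PRMT5 mouse 3 was the lowest of its genotype and Eµ-PRMT5/TCL1 mouse 1 the highest of all 8. The log2 fold change was -0.47 ± 0.65 (SE, adjusted p = 1.00, edgeR). It was -1.71 without Eµ-PRMT5/TCL1 mouse 1, then at an unadjusted p under 0.05, -0.17 without mouse 2 and -0.05 without mouse 3 of that genotype. Ncr1, the activating receptor NKp46 and a marker of NK cells, measured 7.92, 6.02, 13.0 and 3.46 CPM in Eµ-PRMT5 mice 1 to 4, 3.28, 6.15 and 5.38 CPM in Eµ-PRMT5/TCL1 mice 1 to 3 and 10.8 CPM in the Eµ-TCL1 library. Eµ-PRMT5 mouse 3 was the highest and the Eµ-TCL1 mouse came next, with 40 counts, and the 2 replicated genotypes overlapped (log2 fold change -0.61 ± 0.59, SE, adjusted p = 1.00, edgeR). The fold change was -0.22 without Eµ-PRMT5 mouse 3 and -0.39 without Eµ-PRMT5/TCL1 mouse 1.

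Klrd1, whose product CD94 pairs with NKG2 receptors, had 8.93, 5.38 and 7.07 CPM in Eµ-PRMT5 mice 1 to 3, no value in mouse 4, 3.12 and 1.29 CPM in Eµ-PRMT5/TCL1 mice 1 and 2, no value in mouse 3 and 1.89 CPM in the Eµ-TCL1 library. It was highest in Eµ-PRMT5 mouse 1, and with no value in 1 mouse of each replicated genotype an overlap between them cannot be judged. Eomes, a T-box transcription factor of NK and CD8 T cells, had 11.2, 10.1, 21.2 and 0.922 CPM in Eµ-PRMT5 mice 1 to 4, 4.59 and 3.15 CPM in Eµ-PRMT5/TCL1 mice 1 and 2, no value in mouse 3 and 4.87 CPM in the Eµ-TCL1 library. Its highest value was in Eµ-PRMT5 mouse 3 and its lowest in mouse 4, where Gzma and Klrd1 had none.

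A gene was called where its adjusted p was under 0.05 and the difference exceeded 4-fold. With edgeR, 0 of the 6 tested genes and 0 of all 13173 (0%) were called for Eµ-PRMT5/TCL1 against Eµ-PRMT5. DESeq2 called 4 of the 13173 and also 0 of these 6, of which Ccl5 and Prf1 were at an unadjusted p under 0.05. At an unadjusted p under 0.05, 1 of the 6, Prf1, was lower and 0 were higher, against 160 genes lower (1.21%) and 126 higher (0.957%) over all genes by edgeR and 248 lower and 146 higher by DESeq2. A single gene of 6 is too few to set apart from such shares. All 6 had a fold change below 0 in this fit, as had 59.4% of all genes, and the same 6 were below 0 with upper-quartile scaling and with library size only, but 5 of 6 without Eµ-PRMT5 mouse 3. Their median log2 fold change was -1.15, against -0.09 over all genes tested, and it was -0.71 without Eµ-PRMT5 mouse 3, -1.78 without Eµ-PRMT5/TCL1 mouse 1 and -0.76 without Eµ-PRMT5/TCL1 mouse 3. Of the 6, 0 were lower in every Eµ-PRMT5/TCL1 than in every Eµ-PRMT5 mouse, which held for 1.59% of all genes. The counts of genes below 0 and at an unadjusted p under 0.05 were chosen after the values were seen, and the latter moved with single mice. Over all genes they were 347 lower and 424 higher when Eµ-PRMT5 mouse 3 was left out, 368 and 392 when mouse 4 of that genotype was, 129 and 77 without Eµ-PRMT5/TCL1 mouse 1 and 66 and 83 without its mouse 2. Among the 6 genes the count was 0 with Eµ-PRMT5 mouse 3 left out, 2 with mouse 4 left out, where Ccl5 joined Prf1, and 3 with Eµ-PRMT5/TCL1 mouse 1 left out, where Klrk1 joined as well.

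**Figure D3:**
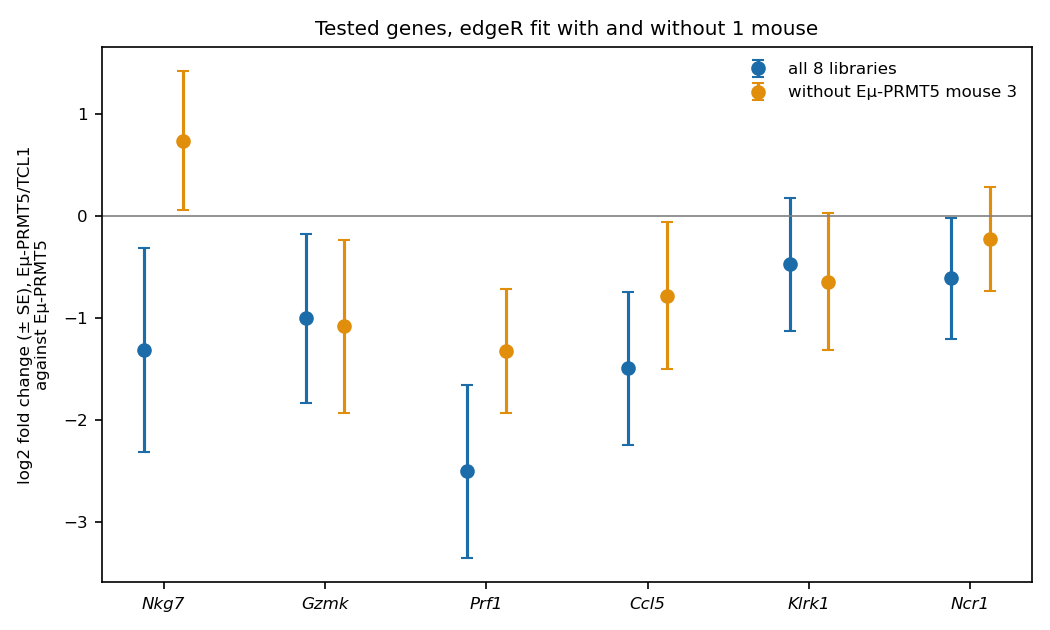
Log2 fold change (± SE, edgeR) of the 6 tested genes of Eµ-PRMT5/TCL1 against Eµ-PRMT5, with all 8 libraries and without Eµ-PRMT5 mouse 3. Nkg7 moves from -1.31 to 0.74 and Prf1 from -2.50 to -1.32.

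Set in order of their means, 5 of the 6 tested genes were highest in Eµ-PRMT5 mice and 1, Ncr1, in the Eµ-TCL1 mouse, and 35.1% of all genes were highest in Eµ-PRMT5 mice. Without Eµ-PRMT5 mouse 3 the 5 became 3, as Nkg7 and Prf1 were then higher elsewhere, and the share of all genes was 38.4%. Without Eµ-PRMT5 mouse 2 the 5 became 4 and the share was 36.3%. With all mice, Nkg7, Ccl5 and Klrk1 were lowest in the Eµ-TCL1 mouse by mean, and Gzmk, Prf1 and Ncr1 were lowest in Eµ-PRMT5/TCL1 mice. Mouse by mouse, Nkg7 was the 1 of the 6 that was lowest of all 8 libraries in the Eµ-TCL1 mouse, a position held by 14.2% of all genes. With 1 CPM added, the log2 ratio of the Eµ-TCL1 library to the mean of Eµ-PRMT5 mice was -4.65 for Nkg7, -2.68 for Ccl5, -1.07 for Prf1, -0.90 for Klrk1, -0.28 for Gzmk and 0.46 for Ncr1. Nkg7 and Ccl5 were thus over 4-fold lower, as were 1.08% of all genes, and 0 of the 6 were over 4-fold higher, as were 1.28% of all genes. With Eµ-PRMT5 mouse 3 left out the ratio was -2.64 for Nkg7, -1.97 for Ccl5, 0.04 for Prf1 and 0.80 for Ncr1, and the count over 4-fold was 1, Nkg7. Gzmk was at 0.21 without mouse 2 and -0.53 without mouse 4 of that genotype, where Ncr1 was at 0.24. With 1 Eµ-TCL1 mouse, and a list chosen from this column, these values are a description from which nothing is read.

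Mice of 1 genotype also differed from each other. Between the highest and the lowest Eµ-PRMT5 mouse the level differed 25.5-fold for Nkg7, 19.8-fold for Prf1, 9.23-fold for Ccl5, 8.92-fold for Gzmk, 3.76-fold for Ncr1 and 2.02-fold for Klrk1. The median of the 6 was 9.08-fold, against 2.83-fold over the 12829 tested genes with no count of 0 in these mice. Without mouse 3 the median of the 6 was 3.43-fold against 2.17-fold over all genes, with Nkg7 at 2.98, Prf1 at 4.95, Ccl5 at 3.89, Ncr1 at 2.29 and Klrk1 at 1.31. Without mouse 4 the medians were 3.00-fold and 2.18-fold, with Prf1 at 5.26, Ccl5 at 3.23, Gzmk at 2.77 and Ncr1 at 2.16. Without mouse 2 Nkg7 was at 15.8 and Gzmk at 3.30. With all 4 mice, 1.86% of those genes differed by more than Nkg7 and 73.8% by more than Klrk1. Eµ-PRMT5 mouse 3 was the highest of all 8 libraries for 4 of the 6, Nkg7, Prf1, Ccl5 and Ncr1, and for 12.7% of all genes. These ranges and this count were chosen after mouse 3 had been seen to stand apart.

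Levels of different genes can be set side by side only per length. Length here is the union of all annotated exons of a gene, 7183 bases for Klrk1 and 1389 for Gzmk. Which transcripts were present was not tested, so the order rests on these lengths. Per kilobase of annotated exon, the mean in Eµ-PRMT5 mice was 95.9 ± 79.8 CPM for Ccl5, 93.0 ± 142 CPM for Nkg7, 9.23 ± 10.6 CPM for Prf1, 4.93 ± 2.62 CPM for Ncr1, 2.61 ± 2.00 CPM for Eomes, 2.05 ± 1.68 CPM for Gzmk and 1.88 ± 0.523 CPM for Klrk1 (SD, n = 4). The ranges over the 4 mice overlapped between each gene and the next in this order, and Ccl5 and Nkg7 ranged from 22.6 to 208 and from 12.0 to 305 CPM per kilobase. Within each mouse, though, Nkg7 was above Prf1, at 19.3, 12.0, 305 and 35.6 against 4.71, 6.19, 24.8 and 1.25 CPM per kilobase in mice 1 to 4. Without mouse 3 the means were 58.3 for Ccl5, 22.3 for Nkg7, 4.05 for Prf1, 3.76 for Ncr1, 2.18 for Gzmk, 2.11 for Klrk1 and 1.78 CPM per kilobase for Eomes, which moved below Gzmk and Klrk1.

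The position and sequence of the genes bear on how their reads are counted. In GENCODE M21 on GRCm38, Klrd1 (chr6:129591782-129598775) and Klrk1 (chr6:129610323-129623864) both lie on chromosome 6, Gzma (chr13:113093825-113100981) and Gzmk (chr13:113171608-113225908) both lie on chromosome 13, and Nkg7 lies at chr7:43437073-43438249. No stretch of 50 bases in the annotated transcripts of 9 of the genes was found in a transcript of another gene. Eomes (chr9:118478212-118486132) shared 118 exon bases with the antisense gene Gm33460 on the other strand. Its transcripts shared stretches of 50 bases with 124 genes, of which Gm33460 held the most, 1.69% of those of Eomes. Gzmk overlapped Esm1 on the other strand with 0 shared exon bases. Whether counting kept the strands apart is not given in the sources used here.

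Promoter windows of 300 bases, 250 before and 50 after the start, were taken from RefSeq (GRCm38.p6) for 8 of the 10 genes, without Ccl5 and Klrd1. Those of Nkg7 (chr7:43436888-43437187, plus strand) and Prf1 (chr10:61297586-61297885, plus strand) are shown because Nkg7 is the gene that drew attention to the list and Prf1 the one at an unadjusted p under 0.05. Capitals mark the letters GGTGTGA (a T-box core), TGTGGT (a RUNX core) and AGGAAGT (an ETS core), searched on both strands and shown as they read on the plus strand, with no overlap between matches in either window.
Nkg7: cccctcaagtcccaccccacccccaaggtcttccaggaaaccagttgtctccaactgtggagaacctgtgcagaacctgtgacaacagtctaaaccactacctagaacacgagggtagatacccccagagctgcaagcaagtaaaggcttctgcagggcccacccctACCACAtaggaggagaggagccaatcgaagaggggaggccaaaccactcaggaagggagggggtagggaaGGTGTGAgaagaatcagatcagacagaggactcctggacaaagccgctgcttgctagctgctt
Prf1: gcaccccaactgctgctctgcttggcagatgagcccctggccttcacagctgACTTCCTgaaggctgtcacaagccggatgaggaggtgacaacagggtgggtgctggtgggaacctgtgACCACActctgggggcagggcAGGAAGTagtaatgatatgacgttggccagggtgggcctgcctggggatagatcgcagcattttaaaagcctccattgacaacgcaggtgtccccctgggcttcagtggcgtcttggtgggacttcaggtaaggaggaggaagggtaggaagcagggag
Nkg7 holds 1 T-box and 1 RUNX core and Prf1 holds 1 RUNX and 2 ETS cores. Of the 8 genes, of which Ncr1 has 2 windows, 2 hold the T-box core (Nkg7 and Gzmk), 6 the RUNX core and 1 the ETS core. Of all 32851 windows of this length 3.98%, 16.8% and 9.35% do. The letters of all 3 were chosen after these windows had been read, the RUNX core being shortened to the form found in Nkg7, so the counts among the 8 genes carry no weight. A match is a description of the letters and not a bound site.

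Genes that work beside these were followed in lists. Of 14 granule effectors and cofactors, 9 were tested, with a median log2 fold change of 0.04, 1 at an unadjusted p under 0.05 and lower (Gzmm, granzyme M, -2.32 ± 0.98, SE), and 0 higher. Ctsc, the protease that activates granzymes, was both the most abundant and the highest in fold change (0.53 ± 0.54, SE), and it was at 2359 CPM in Eµ-PRMT5 mouse 4 and 2300 CPM in Eµ-PRMT5/TCL1 mouse 1. Gzmm, named here after its values were seen, was like Nkg7 highest in Eµ-PRMT5 mouse 3, with 56.8 CPM against 12.6, 6.81 and 1.84 CPM in the other 3 mice of that genotype. Among the 9 tested genes of this list 4 were highest of all libraries in that mouse, Gzmm, Gzmc, Ctsw and Tnfsf10. Srgn, Cst7, Ctsc, Serpinb9 and Lamp1 were highest elsewhere. Srgn at 207 CPM and Lamp1 at 27.6 CPM were lowest of the Eµ-PRMT5 mice in mouse 3. Of 28 NK receptors 27 were in the table, 19 of them with an NA, and 8 were tested, with a median of -0.67 and 0 at an unadjusted p under 0.05. Fcgr3 was the most abundant by CPM over all libraries together, with 222 CPM in Eµ-PRMT5 mouse 4 and 163 CPM in Eµ-PRMT5/TCL1 mouse 1. Slamf7 had more CPM than Fcgr3 in Eµ-PRMT5 mice 1, 2 and 3 and in Eµ-PRMT5/TCL1 mouse 3. Klrb1f (1.39 ± 0.73, SE) and Klrb1b (-1.38 ± 1.09, SE) were the highest and the lowest in fold change. Of 12 receptor adaptors 11 were tested (median 0.17), with Syk the most abundant, Lcp2 at 0.72 ± 0.62 (SE) and Zap70, the kinase beside the T cell receptor, at -2.34 ± 0.75 (SE), the only 1 at an unadjusted p under 0.05. Zap70 was at 5.48, 8.23, 20.5 and 34.5 CPM in Eµ-PRMT5 mice 1 to 4, highest in mouse 4. The paper names it among genes higher in CLL-like splenic cells of Eµ-PRMT5 than of Eµ-TCL1 mice.

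Of 12 transcription factors 11 were tested (median -0.28), with Ets1 the most abundant, Tbx21, the T-box relative of Eomes, at 1.10 ± 0.75 (SE) and Gata3 at -1.47 ± 0.76 (SE). Of 12 chemokines and cytokines 7 were tested (median 0.22), with Il18rap the most abundant, Cx3cr1 at 1.14 ± 0.81 (SE) and Cxcr3 at -2.10 ± 1.01 (SE). The 8 tested of 10 granule exocytosis genes (median 0.03, Stxbp2 the most abundant) ran from Stx11 at -0.14 ± 0.58 (SE) to Unc13d at 0.42 ± 0.38 (SE). The 8 of 8 of the IL-15 receptor list (median 0.14) ran from Jak1, its most abundant gene, at -0.47 ± 0.40 (SE) to Il15 at 1.10 ± 0.59 (SE). None of these 4 lists had a gene at an unadjusted p under 0.05.

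**Figure D4:**
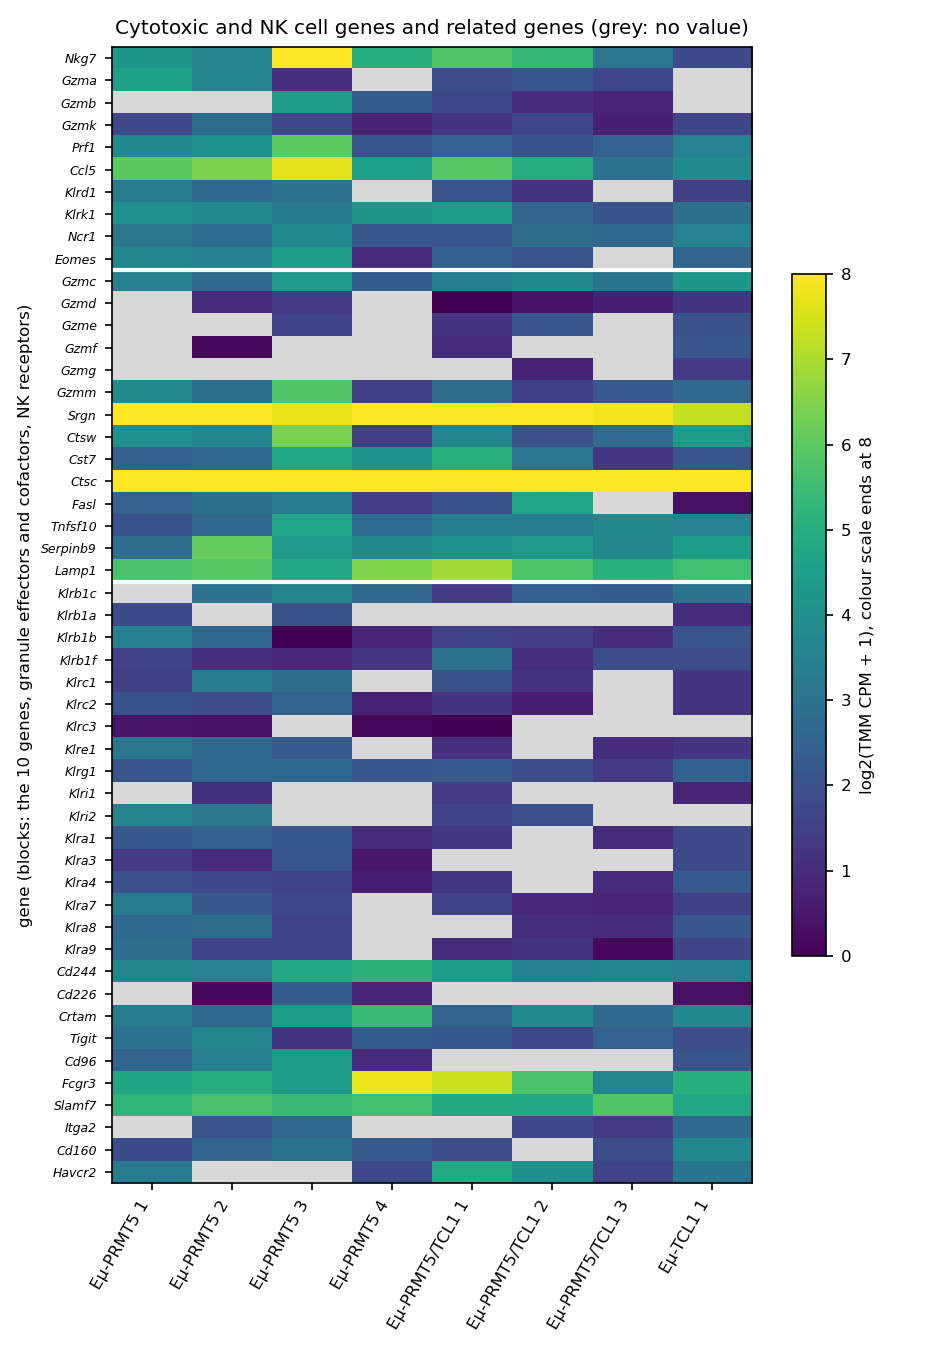
Log2 of TMM CPM + 1 of the 10 genes, the granule effectors and cofactors and the NK receptors, genes from top to bottom and libraries from left to right, grey for no value. Nkg7, Prf1, Ccl5 and Gzmm are brightest in Eµ-PRMT5 mouse 3, where Nkg7 is at 279 CPM, and Srgn, Ctsc and Lamp1 are brightest in other libraries.

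Markers of other cells differed between these libraries, and their part in the levels above was not tested. The CD8 T markers (4 tested, median -1.79) had 2 genes lower at an unadjusted p under 0.05 and the T markers (9 tested, median -0.75) 3 lower, with Cd3d at -2.53 ± 0.88 (SE) the lowest in both and Cd3g (-0.20 ± 0.60, SE) and Cd2 (0.75 ± 0.41, SE) the highest. Without Eµ-PRMT5 mouse 3 the medians were -0.33 and -0.13, 0 and 1 genes were lower at that threshold and Cd3d was at -1.37 ± 0.65 (SE). Of the CD8 T markers 3 were lower with Eµ-PRMT5 mouse 4 left out and 1 with any single Eµ-PRMT5/TCL1 mouse left out. The T markers, all 14 in the table with Cd2 the most abundant, summed to 738, 668, 1170 and 495 CPM in Eµ-PRMT5 mice 1 to 4, 778, 1331 and 779 CPM in Eµ-PRMT5/TCL1 mice 1 to 3 and 572 CPM in the Eµ-TCL1 library. Without Cd2 and Lck, which make up most of it, the sum was 172, 177, 429 and 166 CPM, then 156, 140 and 124 CPM, and 197 CPM in the same order. Cd4, Themis and Trat1 had no value in Eµ-PRMT5 mouse 1, Bcl11b had none in mouse 4 and Thy1 had none in Eµ-PRMT5/TCL1 mice 1 and 3. The 11 neutrophil markers, all tested (median 0.56, 1 higher at an unadjusted p under 0.05) with Ngp the most abundant and 1 at 0 in Eµ-PRMT5 mouse 1, summed to 437 CPM in Eµ-PRMT5 mouse 3, where Nkg7 was highest, and to 2671, 2136 and 5308 CPM in mice 1, 2 and 4. Mpo (2.13 ± 0.94, SE) and Retnlg (-1.46 ± 0.90, SE) had the highest and lowest fold change among them. They summed to 9186, 5126 and 658 CPM in Eµ-PRMT5/TCL1 mice 1 to 3 and to 600 CPM in the Eµ-TCL1 library. At an unadjusted p under 0.05 the remaining lists had 1 gene lower of 10 B markers (median 0.06), 0 of 4 macrophage markers (0.78), 0 of 3 plasmacytoid dendritic (0.28), 1 higher of 2 mast cell and basophil (0.60), 1 lower of 2 platelet (-1.17) and 0 of 4 erythroid markers tested (0.33), each with its median log2 fold change. Most abundant were Cd79a, Cd68, Tcf4, Kit, Itga2b and Hba-a1 in turn. The highest fold changes were Ms4a1 0.74, Csf1r 1.05, Ccr9 0.51, Mcpt8 2.24, Itga2b -0.76 and Hba-a2 0.55, and the lowest Fcer2a -2.76, Vcam1 -0.07, Tcf4 -0.60, Kit -1.04, Gp9 -1.59 and Hbb-bt -0.01, of which Mcpt8, Fcer2a and Gp9 were at an unadjusted p under 0.05.

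Among the 6 tested genes the Pearson correlation of log2 CPM across the 8 libraries (r) ran from -0.377, between Ncr1 and Klrk1, to 0.777, between Ncr1 and Prf1, and it was 0.714 between Ccl5 and Nkg7. These values describe 8 libraries that share their genotypes and the high levels of Eµ-PRMT5 mouse 3, and they carry no test.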

How the data were processed

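The authors deposited raw read counts per gene symbol for each of the 8 mice, without normalization. Their processing notes name GRCm38, Subread, featureCounts and DESeq2 1.20.0, and the use of strand in their counts is not given in the sources used here. For diseased mice the study's methods describe low-input preamplification, the CLEAR workflow, which keeps transcripts that are quantified reliably, and DESeq2, with no aligner or annotation. The labels of these mice instead describe the stranded library kit that the methods, with STAR and an Ensembl annotation, give for another set of libraries. The label of Eµ-PRMT5 mouse 2 bears an identifier that the methods also give to a founder. The meaning of NA is not stated, and 36919 cells (18.5%) hold it. Eµ-PRMT5 mouse 1 stood apart with 8523 of them, against 3427 to 4491 in each other library.

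Main results rest on 14072 symbols that had counts or 0 in each library, passed through edgeR's expression filter by genotype (13173 genes), scaled by TMM and fitted with 1 mean per genotype (edgeR 4.0.16, R 4.3.3, quasi-likelihood test, Benjamini-Hochberg adjustment over all genes), which was first tested on simulated data. Calls required an adjusted p below 0.05 together with more than 4-fold difference. The biological coefficient of variation was 0.483. DESeq2 1.42.0, other scalings and filters, NA counted as 0, a replicate block and leaving out each mouse were alternatives.

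Log2 CPM for correlations used a prior count of 2. Gene positions and exon lengths came from GENCODE M21 (GRCm38), promoters from RefSeq (GRCm38.p6). Intervals used scipy 1.17.1 in Python 3.11.15. Genotype groups follow the descriptions of the samples. The members and the 16 lists of other genes were chosen with earlier results of these data known. Named from each list were its most abundant gene and those with the highest and lowest fold change. Most abundant means by CPM over all libraries together, not per length, and need not hold in each library. Cd8a, Cd8b1, Klrb1c, Slamf7, the levels of Gzmm and Zap70, the promoter letters and the counts on single mice were chosen after their values were seen. Figures used matplotlib 3.10.9.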

Additional observations from a re-analysis of the deposited data

Results flagged for a closer look

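In each of 63 genes or list sums the 4 Eµ-PRMT5 mice were searched for 1 animal whose gap to the nearest other exceeded Dixon's 95% limit. Of the 63, 6 passed it. Chance passes it in about 1 in 20 groups where values are normally distributed, which was not tested for these CPM. The 63 also overlap, as list sums hold genes that were searched alone. Nkg7 in mouse 3 was at 279 CPM against 10.9 to 32.5 CPM in the others (gap over range 0.919). The summed CD8 T markers in the same mouse were at 355 CPM against 58.1 to 107 CPM (0.835), the 107 CPM being that of mouse 4 with Cd3g at 95.1 CPM. The other 4 were all high in mouse 4. Ctsc was at 2359 CPM against 557 to 845 CPM (0.840), and the granule effectors and cofactors, whose sum Ctsc leads, were at 2854 CPM against 1070 to 1265 CPM (0.891). Without Ctsc that sum was 420, 513, 475 and 495 CPM in mice 1 to 4. Fcgr3, an Fc receptor, was at 222 CPM against 20.5 to 31 CPM (0.948), and the NK receptors, a list that holds it, were at 371 CPM against 176 to 199 CPM (0.882). Without Fcgr3 that sum was 151, 163, 178 and 149 CPM in mice 1 to 4. Macrophage markers summed to 143, 199, 374 and 908 CPM and neutrophil markers to 2671, 2136, 437 and 5308 CPM in the same mice, and their part was not tested. These sums cover different genes in each mouse. No value or 0 was held by 4, 2, 1 and 0 macrophage markers in mice 1 to 4. For the NK receptors the numbers were 4, 2, 5 and 9, and for the granule effectors and cofactors 4, 2, 2 and 4.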

How the results depend on the processing

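With DESeq2, 4 genes were called for Eµ-PRMT5/TCL1 against Eµ-PRMT5 where edgeR called 0, and the cause was not tested. Other scalings, other filters, the adjusted p without a fold limit, a fit of the 2 genotypes alone, NA counted as 0 and leaving out any mouse gave 0, and the count among the 10 genes, as far as they could be fitted, was 0 in each and with DESeq2. Of the 10, 6 were fitted in most, 4 with at least 10 counts in every library and all 10 only with NA counted as 0. Of 94 recomputed fold changes of the 6 tested genes, 92 kept their sign. The 2 that turned were both of Nkg7, at 0.74 without Eµ-PRMT5 mouse 3 and at 0.16 with the replicate block. Without 1 mouse its value ranged from -1.85 to 0.74.

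Nothing in the labels pairs mice of the same number, and the correlations of their deviations were 0.0213, 0.106 and 0.162. The replicate block over mice 1 to 3 of each genotype gave 0 calls and 0.16 for Nkg7, with 495 genes above and 331 below 0 by unadjusted p under 0.05, where all mice gave 126 and 160. The same mice without the block, an alternative chosen after seeing the data, gave -1.59 for Nkg7, with 374 genes above and 368 below 0. The parts of the block and of the mice used in these differences were not tested. Leaving out single mice for the medians, ranges and ratios was also chosen after seeing the data.

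Of the 6 tested genes of the list, Nkg7 alone was lowest in the Eµ-TCL1 mouse, and leaving out 1 other mouse gave 1 to 2, with 2 where Eµ-PRMT5/TCL1 mouse 3 was left out and Ccl5 joined. The count over 4-fold from Eµ-PRMT5 was 2, 4 with NA counted as 0, which adds genes to the comparison, and 1 to 2 without 1 mouse, 1 being without Eµ-PRMT5 mouse 3. With NA counted as 0, Gzma, Gzmb, Klrd1 and Eomes had log2 fold changes of -1.62, -2.04, -1.80 and -1.99, none at an unadjusted p under 0.05.

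With 9 counts of Nkg7 and 3356297 reads, the Eµ-TCL1 library limits the precision of its low values, and 1 mouse gives no spread for that genotype.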
